A study of Pyrus pyrifolia with 6 samples.

Results

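Genes LOC103946697, LOC103965575 and LOC103953943 are the 3 genes that the study listed as putative homologs of WAX INDUCER1 (WIN1), also called SHINE1 (SHN1), among 42966 genes with a value in RNA-Seq of sand pear (Pyrus pyrifolia) fruit skin. LOC is NCBI's prefix for a gene known by its number, and the deposited files give the numbers alone ('103946697', '103965575' and '103953943'). The members were taken by gene ID from that listing, and their homology was not checked here. No further gene with such a description was found in the gene descriptions used here. These covered only part of the genes (1780 in the table that was held in part), so other such genes could have been missed. RNA came from the skin of 80-d fruits, with 10 fruits per sample and 3 samples per line. The russet group, libraries A1, A2 and A3, was the cultivar 'Niitaka', whose skin is covered by cork. The green group, libraries B1, B2 and B3, was 'Suisho', a bud mutant of 'Niitaka' whose skin stays green. Healthy plants of both lines were open-grown in the orchard, and no treatment was given to either. Each line is 1 clone and 1 stage was sampled, so the skin type cannot be told apart from any other difference between these clones.

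WIN1/SHN1 is a transcription factor of the AP2/ERF family, known from Arabidopsis. There, SHINE factors raise the expression of genes that make cutin and wax, the lipids of the cuticle over the epidermis. The study describes stacked cork cells with suberized walls over russet skin, and cutin wax over green skin. Suberin is a polyester close to cutin, and several Arabidopsis MYB factors are known to switch on its genes.

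The library totals behind the FPKM values, recovered from those values, ran from 31381552 (B3) to 42729578 reads (A2). They are smaller than all quality reads of a library. At these totals 1 read on a transcript of 1 kb was worth 0.0234 to 0.0319 FPKM (fragments per kilobase of transcript, scaled to the size of the library). Lines were compared with limma on log2(FPKM + 0.1) over 30161 genes whose mean reached 0.1 FPKM, and a gene was called at a Benjamini-Hochberg adjusted p under 0.05. A negative log2 fold change means lower in russet skin. With the pseudocount of 0.1, this scale understates changes of low genes. Over all genes tested the median log2 fold change was 0.00, with 8.05% called higher and 7.29% called lower in russet skin. No epidermis or secondary-wall marker could be matched by description, so the labelled tissue was not checked with defining markers.

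All 3 members were lower in each russet library than in any green library. 2 of the 3, LOC103965575 and LOC103953943, were called lower in russet skin, against 7.29% of all genes tested, and LOC103946697 was not called. The mean levels in russet skin were 38.3%, 38.4% and 48.3% of those in green skin for LOC103965575, LOC103953943 and LOC103946697. Among all genes tested, 15.9% also had their 3 russet libraries below their 3 green ones. The study listed these genes with these libraries in view, so their direction is not independent evidence. In bulk skin, fewer cells of a type and less RNA per cell cannot be told apart.

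The most abundant member was LOC103946697, on the minus strand of scaffold NW_008988082.1 of the Chinese white pear reference, from 352833 to 354132. Its deposited transcript length is 1057 bp in a span of 1300 bp. In russet skin it stood at 13.6 (A1), 4.76 (A2) and 11.7 FPKM (A3), from 488, 215 and 517 reads. In green skin it stood at 19.6 (B1), 21.2 (B2) and 21.4 FPKM (B3), from 863, 793 and 709 reads. The green libraries lay close together, while A2 lay far under the other russet libraries. The lowest green library was 1.44 times the highest russet one. The means were 10.02 ± 4.65 FPKM for russet (SD, n = 3) and 20.7 ± 0.986 FPKM for green skin (SD, n = 3), which is 2.07 times as much. The log2 fold change was −1.17 (SE 0.37), with a 95% interval of −2.04 to −0.31. With limma the unadjusted p was 0.0148 and the adjusted p 0.0789, short of the threshold, although the interval for green over russet ran from 1.24-fold to 4.10-fold.

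The member of middle abundance, LOC103965575, lies on the plus strand of scaffold NW_008988334.1, from 380127 to 381063, with a transcript length of 697 bp in a span of 937 bp. It stood at 5.96 (A1), 4.13 (A2) and 4.56 FPKM (A3) in russet skin, from 141, 123 and 133 reads. In green skin it stood at 12.6 (B1), 13.9 (B2) and 11.7 FPKM (B3), from 366, 343 and 257 reads. The lines were well apart, with the lowest green library at 1.97 times the highest russet one. The means were 4.88 ± 0.959 FPKM (SD, n = 3) and 12.8 ± 1.09 FPKM (SD, n = 3). Gene LOC103965575 was lower in russet skin by a log2 fold change of −1.38 (SE 0.17, limma adjusted p = 0.00194). The 95% interval for green over russet ran from 1.97-fold to 3.44-fold.

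The least abundant member, LOC103953943, lies on the minus strand of scaffold NW_008988146.1, from 801052 to 802353, with a transcript length of 1136 bp in a span of 1302 bp. It stood at 1.82 (A1), 1.11 (A2) and 1.98 FPKM (A3) in russet skin, from 70, 54 and 94 reads. In green skin it stood at 3.38 (B1), 4.10 (B2) and 5.30 FPKM (B3), from 160, 165 and 189 reads. Again no russet library reached the green range, with the lowest green library at 1.71 times the highest russet one. The means were 1.64 ± 0.460 FPKM (SD, n = 3) and 4.26 ± 0.971 FPKM (SD, n = 3). The log2 fold change was −1.34 (SE 0.28, limma adjusted p = 0.0196), with a 95% interval for green over russet of 1.60-fold to 4.03-fold.

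**Figure D1:**
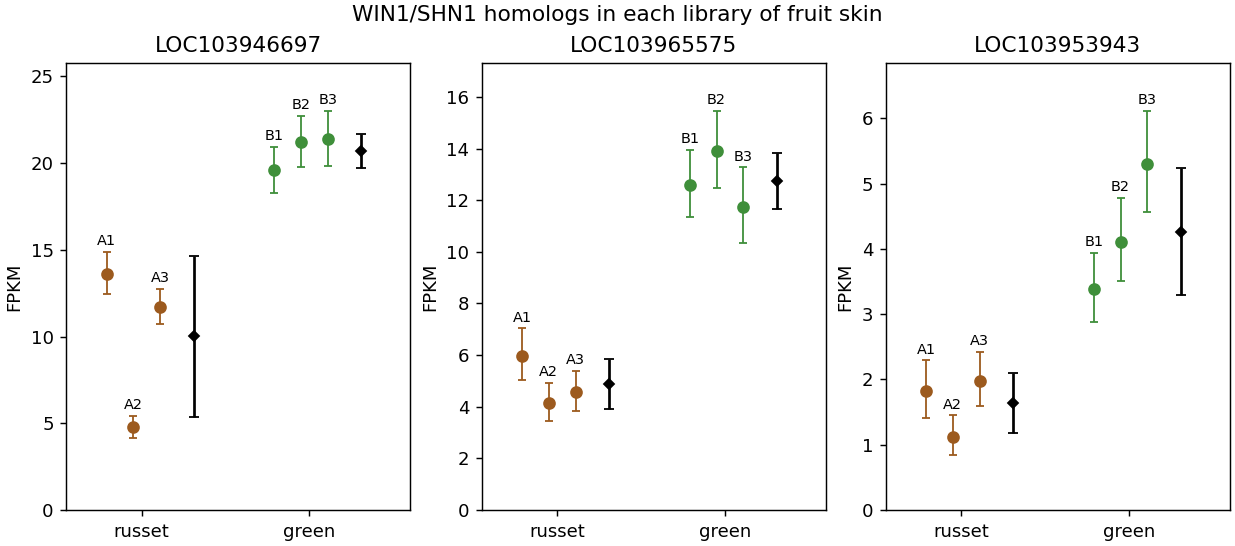
FPKM of the 3 WIN1/SHN1 homologs in each russet (A1 to A3) and green (B1 to B3) library, on axes starting at 0. Coloured bars are 95% Poisson intervals of the reads, which cover counting error only, and black diamonds with bars are the mean ± SD of 3 libraries. For LOC103946697 the green libraries sit between 19.6 and 21.4 FPKM, and A2 at 4.76 FPKM lies below the other 2 russet libraries.

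The changes were near the lower end of all genes without being extreme: 6.70%, 5.37% and 5.55% of the genes tested had a lower log2 fold change than LOC103946697, LOC103965575 and LOC103953943. The 95% intervals of the log2 fold changes of the 3 genes overlapped. In no library was a member silent. Among genes with a read, LOC103946697 stood above 78.5% to 79.9% of genes in the green libraries and above 49.7% to 70.3% in the russet ones. The matching ranges were 66.2% to 71.3% and 47.4% to 53.1% for LOC103965575, and 44.2% to 49.8% and 29.2% to 35.3% for LOC103953943.

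The order of abundance per length, LOC103946697 above LOC103965575 above LOC103953943, was the same in all 6 libraries. In A2 the first 2 were not separable by counting error, at 4.76 FPKM (95% Poisson interval 4.15 to 5.44) and 4.13 FPKM (3.43 to 4.93). Summed over the members, FPKM was 21.4, 10.003 and 18.2 in A1, A2 and A3, and 35.6, 39.2 and 38.4 in B1, B2 and B3. The russet sum of 16.5 ± 5.88 (SD, n = 3) was 43.8% of the green sum of 37.7 ± 1.92 (SD, n = 3). The share of LOC103946697 in this sum was 54.1% to 55.6% in the green libraries, 63.6% and 64.1% in A1 and A3, and 47.6% in A2.

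Whether the line difference varied between the members was tested on the log2 ratio of each of the 3 pairs, with exact two-sided permutation tests over the 6 libraries, whose smallest possible p was 0.1. The ratio of LOC103946697 to LOC103965575 was 2.28, 1.15 and 2.56 in A1, A2 and A3 and 1.55, 1.52 and 1.82 in B1, B2 and B3. A1 and A3 were above and A2 below all green libraries, and the mean log2 ratio was 0.21 higher in russet skin (exact p = 0.6, adjusted over 3 pairs 0.9). The ratio of LOC103946697 to LOC103953943 ran from 4.28 to 7.49 in russet and from 4.03 to 5.80 in green skin (exact p = 0.4, adjusted 0.9). For LOC103965575 to LOC103953943 it ran from 2.31 to 3.71 and from 2.22 to 3.73 (exact p = 1, adjusted 1). The lines overlapped in every ratio. With 3 libraries per line this test cannot reach 0.05, so it leaves unknown whether the members' changes differ.

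The 3 genes differed in how far the libraries of a line spread. In russet skin the coefficient of variation was 46.5% for LOC103946697, 19.6% for LOC103965575 and 28.1% for LOC103953943, against 5.36%, 8.71% and 12.03% from counting error alone. The first of these was above that of 95.2% of the 9019 genes within a factor of 2 of its mean. In green skin the coefficients were 4.76%, 8.52% and 22.8%, against 3.57%, 5.64% and 7.66% from counting. For LOC103946697 only 10.5% of genes of like level had a lower coefficient in green skin, so its spread was above most in russet and below most in green skin. The russet value rested on A2 for LOC103946697 and LOC103953943, as A1 and A3 alone gave 10.8% and 5.98%. For LOC103965575 it did not, as A1 and A3 alone gave 18.9%. The spread of LOC103965575 was above that of 72.2% of genes of like level in russet and 25.4% in green skin, and that of LOC103953943 above 69.0% and 56.9%.

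Library A2 was the lowest russet library for all 3 genes. It stood at 37.6% of the mean of A1 and A3 for LOC103946697, at 58.7% for LOC103953943 and at 78.5% for LOC103965575. Among genes with a single lowest russet library, it was A2 for 41.6% of those tested, and for 43.4% of those whose mean reached 1 FPKM. The distance was less common: only 98 of the 23838 genes of the latter mean (0.411%) lay further below the lower of A1 and A3 than LOC103946697, which was 1.28 below on the log2 scale. For LOC103953943, 0.66 below, it was 2.35% of genes, and for LOC103965575, 0.14 below, 24.2%. A2 had the largest read total. The green libraries shared no such order, as B1 was the lowest for LOC103946697 and LOC103953943 and B3 for LOC103965575.

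In most lists of suberin and cutin genes, A2 was also the lowest russet library more often than over all genes tested, though not for every gene. As log2 deviations from the russet mean, A2 stood at −0.92, −0.22 and −0.48 for LOC103946697, LOC103965575 and LOC103953943. Its median deviation was −0.32 over 11 MYB homologs, −0.32 over 21 genes of cutin, suberine and wax synthesis, and −0.05 over all genes tested. A2 was the lowest russet library for 9 of these 11 MYB homologs (81.8%) and for 12 of the 15 synthesis genes (80.0%) that had a single lowest russet library. The other 6 synthesis genes were tied at 0 FPKM in A2 and at least 1 other russet library. Over these 15 genes the median deviation of A2 was −0.40. A2 was also lowest for 5 of 5 genes like suberin exporters and 18 of 26 GDSL lipases with a single lowest library (69.2%). It was lowest for 4 of 7 genes like those that export or join cutin monomers (57.1%), against 41.6% of all genes tested. These 7 genes are too few to tell their share from that of all genes. The most abundant of these 7, LOC103936479, was instead highest in A2, at 283 FPKM against 218 in A1 and 203 in A3. Between the lines, 10 of the 11 MYB homologs were called higher in russet skin. The 21 synthesis genes were split, with 11 called higher and 9 called lower. Both LOC103965575 and LOC103953943 were called lower. The matching shares of all genes tested were 8.05% higher and 7.29% lower. The part of depth in the values of A2 was not tested.

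**Figure D2:**
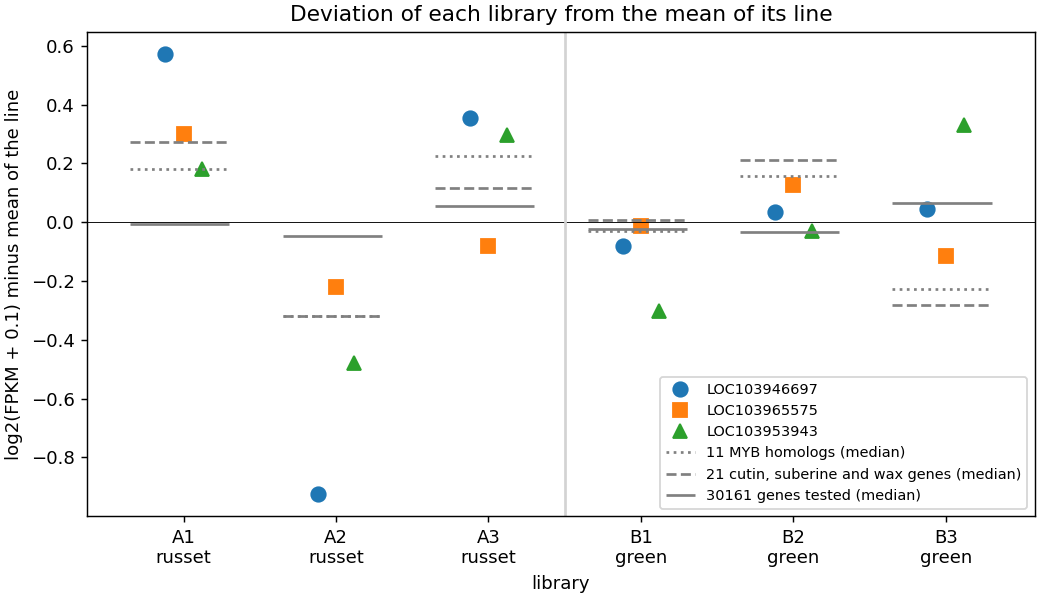
Log2 deviation of each library from the mean of its line for the 3 WIN1/SHN1 homologs (points), with the medians of 11 MYB homologs (dotted), 21 cutin, suberine and wax genes (dashed) and all 30161 genes tested (solid). In A2 the 3 genes lie at −0.92, −0.22 and −0.48 and the medians of both lists at −0.32, while the median of all genes is at −0.05. In B3 LOC103953943 lies at 0.33.

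One russet library thus decided whether LOC103946697 was called. Without A2 its log2 fold change was −0.71 (SE 0.13, limma adjusted p = 0.0222), a smaller difference that passed the threshold. Without any 1 of the other libraries it ran from −1.46 to −1.15, with adjusted p from 0.0556 to 0.194. Gene LOC103953943 lost its call without B2 (−1.36, adjusted p = 0.0667) and without B3 (−1.18, adjusted p = 0.0628). Gene LOC103965575 was called whichever library was left out (log2 fold change −1.53 to −1.27, adjusted p 0.00261 to 0.0128).

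**Figure D3:**
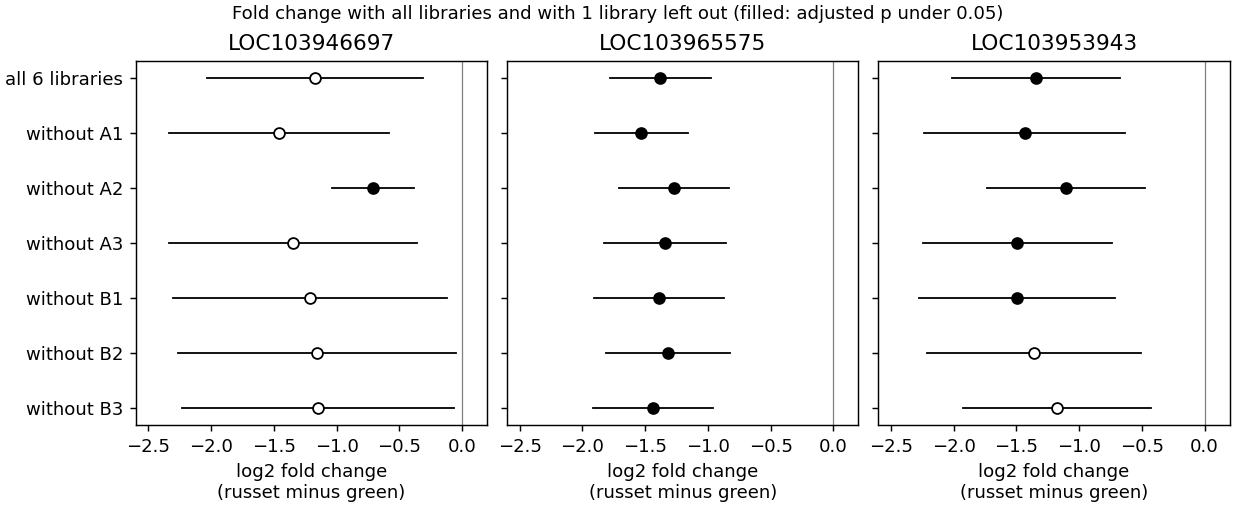
Log2 fold change of russet against green for each WIN1/SHN1 homolog with all 6 libraries and with each library left out, with 95% intervals. Filled points passed an adjusted p of 0.05. Without A2 the estimate for LOC103946697 moves from −1.17 to −0.71 and its interval narrows.

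Genes with the pattern most like each member across the 6 libraries were found among 23835 genes whose mean reached 1 FPKM, by the mean absolute difference between profiles of log2(FPKM + 0.1), each centred on its own mean. The 3 most like LOC103946697 were LOC103932827 (difference 0.071), LOC103967450 (0.094) and LOC103947144 (0.107). Of these, LOC103947144 was called (log2 fold change −1.20, limma adjusted p = 0.0460), and the other 2 stood at −1.23 and −1.11 with adjusted p of 0.0793 and 0.107. For LOC103965575 they were LOC103956462 (0.066), LOC103932828 (0.079) and LOC103936198 (0.092), all called lower in russet skin, by −1.25, −1.46 and −1.38. For LOC103953943 they were LOC103948820 (0.083), LOC103954048 (0.089) and LOC103958657 (0.091), all called lower, by −1.32, −1.25 and −1.26. The likeness shares the line difference that the members carry, and none of the 9 genes had a description in the tables used.

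Among themselves, the members were ranked by the same measure over 23837 genes, the other members included. The difference was 0.25 between LOC103946697 and LOC103953943, 0.27 between LOC103965575 and LOC103953943, and 0.32 between LOC103946697 and LOC103965575. Seen from LOC103946697, LOC103953943 had rank 79 and LOC103965575 rank 364. From LOC103965575 the ranks were 709 for LOC103946697 and 434 for LOC103953943, and from LOC103953943 they were 325 for LOC103946697 and 466 for LOC103965575. By position, the members lie on 3 scaffolds. Of the 9 tested genes among the 2 on each side of each member, LOC103946698, which starts 3255 bp beyond LOC103946697, was the only one called, at 0.528 FPKM in russet and 0.176 FPKM in green skin (log2 fold change 1.21, limma adjusted p = 0.0499). Over all genes tested, 15.3% were called in either direction. The median log2 fold change over the 94, 16 and 86 genes of at least 1 FPKM on the scaffolds of LOC103946697, LOC103965575 and LOC103953943 was 0.04, 0.14 and 0.04.

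Upstream of suberin, the MYB homologs moved in the opposite direction to the WIN1/SHN1 homologs. Of 12 MYB homologs that the study listed from these libraries, 11 were tested. All 11 had a log2 fold change above 0 and 10 were called higher in russet skin, against 8.05% of all genes tested. Their median log2 fold change was 2.56, against 0.00 over all genes. The choice by the study means that this direction is not independent evidence. The largest change was that of LOC103930480, a homolog of MYB93 and MYB107, at 5.55 against 0.143 FPKM (log2 fold change 4.55). The smallest called was that of the MYB41 homolog LOC103939627, also the most abundant, at 10.3 against 4.50 FPKM (1.23). The one tested and not called was LOC103931258 (1.30, limma adjusted p = 0.0613).

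Among enzymes, the 21 genes of the KEGG pathway of cutin, suberine and wax synthesis were split. 11 were called higher and 9 called lower in russet skin, against 8.05% and 7.29% of all genes tested. The median log2 fold change was 2.14. It was the same with 6 genes without a read in 1 line set at the bound given by 3 reads over that line. This list too came from the study's choice on these libraries. The feruloyl transferase-like gene LOC103964024, of a family that adds ferulate in suberin, was highest by change, at 54.8 against 1.01 FPKM (log2 fold change 5.59). Lowest on this scale was LOC103929753, like CER1 of alkane wax synthesis (−6.56, 0.0149 against 10.7 FPKM, from 4 russet reads). For genes without a russet read, such as LOC103932052 (−6.14, 0 against 7.24 FPKM), the fall is known only as a bound. Their place in this order is therefore unknown. The most abundant was LOC103963865, a fatty acid hydroxylase of the CYP86A family, at 1.36 against 98.8 FPKM (−6.15).

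Of 7 genes like those that export or join cutin monomers in Arabidopsis, 4 were called lower and 2 called higher in russet skin (median −1.07). The shares of all genes tested were 7.29% called lower and 8.05% called higher. The largest fall was in LOC103940363, like the lipase LTL1, at 2.05 against 104 FPKM (−5.59). The ABC transporter genes of this list were divided. The ABCG32-like LOC103962994 was higher (18.0 against 0.735 FPKM, 4.47), whereas the ABCG32-like LOC103960664 was lower (10.4 against 21.6 FPKM, −1.07). The most abundant, the ABCG11-like LOC103936479, was higher (235 against 101 FPKM, 1.21), whereas the ABCG11-like LOC103930593 was lower (0.0595 against 5.40 FPKM, −5.14) and the ABCG11-like LOC103930284 was not called (1.69 against 1.30 FPKM, 0.46, limma adjusted p = 0.625). All 5 genes like the suberin exporters ABCG6 and ABCG20 were higher (median 4.61), from LOC103928588 (2.63) to LOC103933813 (5.65), with LOC103936749 the most abundant at 25.8 against 0.933 FPKM. Of 28 genes described as GDSL lipases, a family whose members join or cleave polyesters, 7 were called higher, 12 called lower and 9 not called (median −0.57). They ranged from LOC103929852 (6.35) to LOC103944138 (−9.21, 0.0251 against 73.6 FPKM), and the most abundant was LOC103929236 (−1.15, 111 against 237 FPKM). The LTL1-like gene and LOC103968112 (−4.87, called lower), both of the cutin list, also belong to this list.

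**Figure D4:**
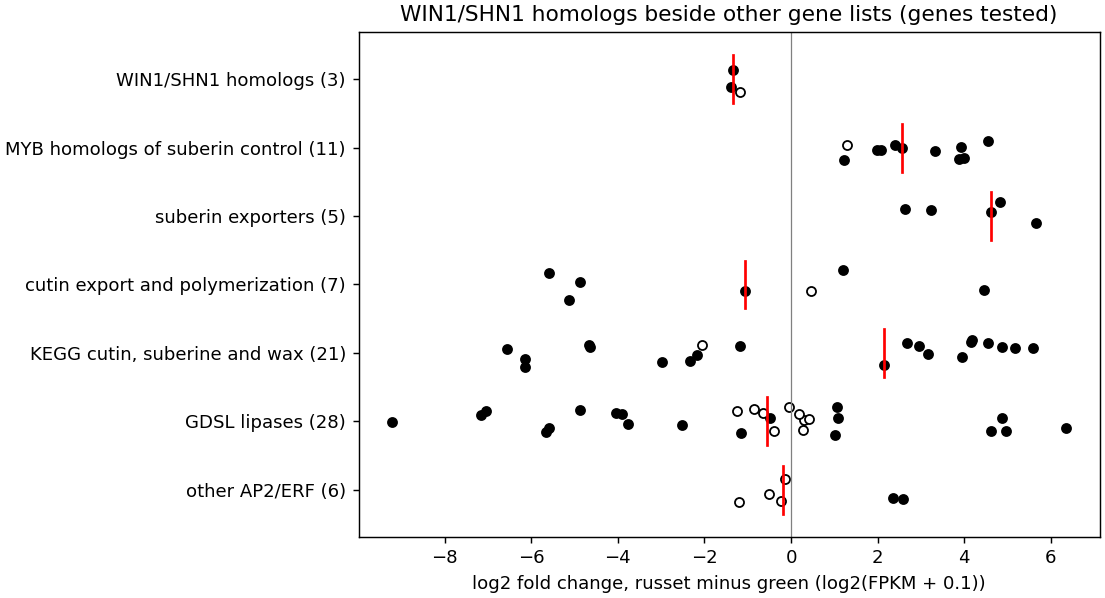
Log2 fold change of russet against green for the 3 WIN1/SHN1 homologs and for each gene of the lists of cutin and suberin, with filled points for an adjusted p under 0.05 and a red line at each list's median. The 3 homologs lie between −1.38 and −1.17, the MYB list has its median at 2.56 and the suberin exporters at 4.61.

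Other AP2/ERF genes could be found only among 1780 genes with a description. Of 15 found, 6 were tested, of which 2 were higher in russet skin and 4 were not called (median −0.19, against −1.34 for the 3 WIN1/SHN1 homologs). The 2 were LOC103926659, like RAP2-7 (2.58), and LOC103926677, like ABR1 (2.36). The most abundant was LOC103926617, like ERF 5, at 47.9 against 97.9 FPKM, a log2 fold change near that of the members (−1.19) that was not called (limma adjusted p = 0.172). A2 was the lowest russet library for 1 of these 6 genes, against all 3 members.

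As for other cells that the skin samples could hold, described markers were few. The chlorophyll a-b binding genes LOC103926626 and LOC103927393, of green tissue, stood at 249 against 162 FPKM (log2 fold change 0.62, limma adjusted p = 0.0228) and 232 against 154 FPKM (0.60, adjusted p = 0.181) in russet against green skin. A gene like sieve element occlusion B, LOC103926766, of phloem, stood at 1.17 against 0.648 FPKM (0.76, adjusted p = 0.171). The means of all 3 were above those of green skin, with 1 called, and A2 was not the lowest russet library for any of them. Their part in the members' values was not tested.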

How the data were processed

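The authors removed adapters and poor reads, aligned the rest with HISAT2 2.0.4 to the NCBI reference of Chinese white pear (Pyrus × bretschneideri), another species, and used Cufflinks 2.1.1, and the submitters' processing notes name DESeq 1.18.0. They deposited FPKM per gene and library with positions and lengths. The assembly version, the counter, its handling of strand and of reads shared by similar genes are not given in the sources used here, so the split of reads between the homologs is uncertain. Library columns matched a line (A russet, B green) but not a sample, so the 3 libraries per line carry no sample name. Whether the samples came from separate trees is not stated in the labels, so p-values measure only the spread between these samples.

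Reads were recovered from FPKM, length and library total (74.5% of 191857 values whole at the deposited length within 0.0001, with another length found for 8439 genes). The members' reads were whole at the deposited length. Poisson intervals cover counting error only. The fit of russet against green used log2(FPKM + 0.1), genes whose mean reached 0.1 FPKM, and the limma functions lmFit and eBayes, the latter with an intensity trend (R 4.3.3, limma 3.58.1). Tests were two-sided and adjusted after Benjamini and Hochberg over all those genes. Scripts were tested on simulated data. Python 3.11.15, numpy 2.4.6, pandas 2.3.3, scipy 1.17.1, statsmodels 0.14.6 and matplotlib 3.10.9 were used. Named genes are the 3 members, the 3 genes most like each, and in each list the largest and smallest log2 fold change called and the most abundant gene. Other list genes were named after their values were seen. Gene descriptions came from the study's tables, 1 of which was held in part. Members and lists were chosen with earlier results of these data known.

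Deviations of libraries of the same number correlated across genes at 0.195, 0.211 and 0.323, and those of other numbers at −0.235 to 0.0436. In 1 alternative fit the numbers were therefore taken to pair the libraries as a block, from the data alone, since the labels number the lines differently. The study's methods name no pairing, so the main fit and the permutation tests left it out and the block is an alternative. The others were pseudocounts of 1 and 0.01, voom on recovered reads, no filter on low values or one at 1 FPKM, quantile normalization, median-ratio scaling, robust moderation, no trend and each library left out.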

Additional observations from a re-analysis of the deposited data

How the results depend on the processing

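With the 10 alternatives that keep all libraries, the log2 fold change ran from −1.41 to −1.23 for LOC103965575 (limma adjusted p 0.0017 to 0.00468), from −1.39 to −0.997 for LOC103953943 (0.0136 to 0.0268) and from −1.21 to −1.09 for LOC103946697 (0.0504 to 0.120), and no call changed. The replicate block gave the adjusted p of 0.0504 for LOC103946697, called 2 of the 3 members as before, and called 6038 genes in all against 4625. With 1 library left out the ranges were −1.53 to −1.27 for LOC103965575, −1.50 to −1.11 for LOC103953943 and −1.46 to −0.71 for LOC103946697. The number of members called then ran from 1 (without B2 or B3) to 3 (without A2), and the number of genes called from 3172 to 3624.

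Other AP2/ERF genes called higher fell from 2 to 1 with a mean of at least 1 FPKM. There LOC103926677 (1.26 against 0.159 FPKM) was below the filter and not tested. With 1 library left out, those called higher ran from 1 to 2. Those called lower rose from 0 to 1 with the replicate block, and ran from 0 to 1 with 1 library left out. The block also raised the GDSL lipases called lower from 12 to 14 and changed no other count of the lists. With a mean of at least 1 FPKM, MYB homologs called higher fell from 10 to 7 and synthesis genes called higher from 11 to 8. With 1 library left out, MYB homologs called higher ran from 8 to 10, and synthesis genes called lower from 8 to 10. GDSL lipases called higher then ran from 5 to 7, and those called lower from 10 to 12. The differences of log2 ratios changed sign under some settings, and their exact test cannot reach 0.05 with these libraries. With a pseudocount of 1, LOC103946697 over LOC103953943 became −0.0895 and LOC103965575 over LOC103953943 −0.24, and with 0.01 the latter became −0.0021. With 1 library left out, LOC103965575 over LOC103953943 ran from −0.23 to 0.20, LOC103946697 over LOC103965575 from −0.0051 to 0.57 and LOC103946697 over LOC103953943 from 0.03 to 0.43.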
